A study of Mus musculus with 18 samples.

Results

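Lung group 2 innate lymphoid cells (ILC2) were compared with immature bone marrow ILC2, which the labels also call ILC2P, in 3 libraries against 3 from control mice. The comparison took in every gene entry of the count table except those on chromosomes X and Y, 23652 of 24781 entries. Of these, 11001 had a count in at least 1 of the 6 libraries and 1858 had enough counts to be tested. The series holds 18 libraries in 6 groups of 3: mature marrow, immature marrow and lung ILC2, each from control mice and from mice without CD45. The control genotype is Rag2 KO, so the control mice also lacked Rag2, a recombinase gene without which T and B cells do not form. The other genotype, CD45 KO x Rag2 KO, adds the loss of the phosphatase CD45. The labels give a tissue, a cell type and a genotype, and they give no age, agent or time. They do not say whether the libraries of a group came from separate animals, so the p-values measure only the spread between these samples, which may be technical.

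ILC2 are lymphocytes without rearranged antigen receptors. They develop from precursors in the bone marrow, depend on the transcription factor GATA3, and settle in barrier tissues such as the lung. There they respond to alarmins such as IL-33 by secreting IL-5, IL-13 and the epidermal growth factor family member amphiregulin. Cells that stay in a tissue differ from those that circulate in chemokine receptors, adhesion molecules and factors that govern exit from the tissue.

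Total counts were 84446 to 94758 in the immature libraries and 82941 to 107373 in the lung libraries. Levels are CPM, the count scaled to a common library size, here with trimmed-mean (TMM) factors. With 3 counts taken as the limit that a count of 0 allows, a gene without counts in a group may reach 11.1 CPM over the immature libraries and 10.1 CPM over the lung libraries, for counting error only. Changes are log2 fold changes, lung minus immature, ± an approximate standard error (SE) derived from the F statistic of edgeR's quasi-likelihood test. Where a group has few counts this SE can understate the counting error. The p-values are Benjamini-Hochberg adjusted over all genes tested. Among ILC2 markers, Gata3 was at 2653, 2719 and 2062 CPM in the immature libraries and at 3428, 3048 and 3201 CPM in the lung libraries. Il1rl1, which encodes the IL-33 receptor, was at 1515, 1540.3 and 1452 CPM and 1168, 1209 and 1372 CPM. Other ILC2 markers went both ways, as given below, with Id2 and Il17rb lower in lung and Rora, Icos and Klrg1 among those higher. Ptgdr2 had 0 counts in all 6 libraries, and Nmur1 had 3 counts over the immature and 0 over the lung libraries. Of 8 eosinophil markers, 8 were at 0 counts in all 6 libraries. Neutrophil markers summed to 1 to 4 counts in the immature and 0 in the lung libraries, with Ly6g and Ngp at 0. Erythroid and platelet markers summed to 8 to 12 and to 2 to 6 counts, nearly all from Hba-a1 and Hba-a2. Mast cell and basophil markers summed to 1 or 2 and to 4 or 5 counts, nearly all from Cpa3, with 8 of 10 at 0. NK cell and ILC1 markers summed to 6 to 18 and to 0 to 10 counts, mostly Ccl5, with Ncr1, Tbx21 and Eomes at 0. Blood progenitor markers summed to 7 to 13 and to 31 to 49 counts, nearly all from Kit, with Cd34 and Flt3 at 0. B cell, ILC3 and endothelial markers summed to 0 to 4 counts in each library. The part of other cells in the results was not tested. T cell markers summed to 0 counts in each immature library and to 4 to 6 in the lung libraries, mostly Cd3g, with Cd3d, Cd4, Cd8a, Cd8b1 and Cd5 at 0. Lung epithelial markers summed to 0 or 1 count in immature and to 0 to 6 in lung libraries, with Sftpc at 0, and fibroblast markers to 0 or 1 count in all 6.

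Lung and immature ILC2 differed at 474 of 1858 tested genes (25.5%). Of these, 273 genes (14.7% of those tested) were higher in lung and 201 (10.8%) were lower, while the median log2 change of all tested genes was -0.02. The higher genes went further from 0. Among them 111 were changed at least 4-fold and 75 at least 8-fold, against 42 and 14 of the lower genes. Their medians were 1.64 and -1.19. The higher genes made up 5.26% to 5.69% of all counts in the immature libraries and 16.5% to 17.4% in the lung libraries, and the lower genes 22.02% to 22.86% and 11.86% to 12.01%. Much of the fall in the lower genes' share was in the noncoding RNA Rn4.5s. It alone held 6.36% to 7.10% of all counts in the immature and 0.867% to 1.04% in the lung libraries. At 715 genes (38.5%) the 3 lung libraries did not overlap with the 3 immature libraries, and 448 of the 474 genes that passed were among them. Of the 1858 genes 652 reached the level of the count filter, 109.6 CPM, in all 6 libraries, and 162 of these passed. A further 311 reached it in all 3 lung libraries but not in all 3 immature ones, and 150 of these passed as higher. The reverse held for 167, of which 65 passed as lower, and 728 did not reach it throughout either group. So part of the genes entered the test through the tissue where they were high, and the counts of higher and lower genes rest partly on them. With upper-quartile scaling the median of all genes moved to -0.17 and the split became 236 higher and 313 lower. The cells were counted in bulk, so fewer cells with a transcript and less of it per cell cannot be told apart. Tissue and the handling of cells before sorting cannot be told apart either, as all lung cells came from one and all immature cells from the other tissue.

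**Figure D1:**
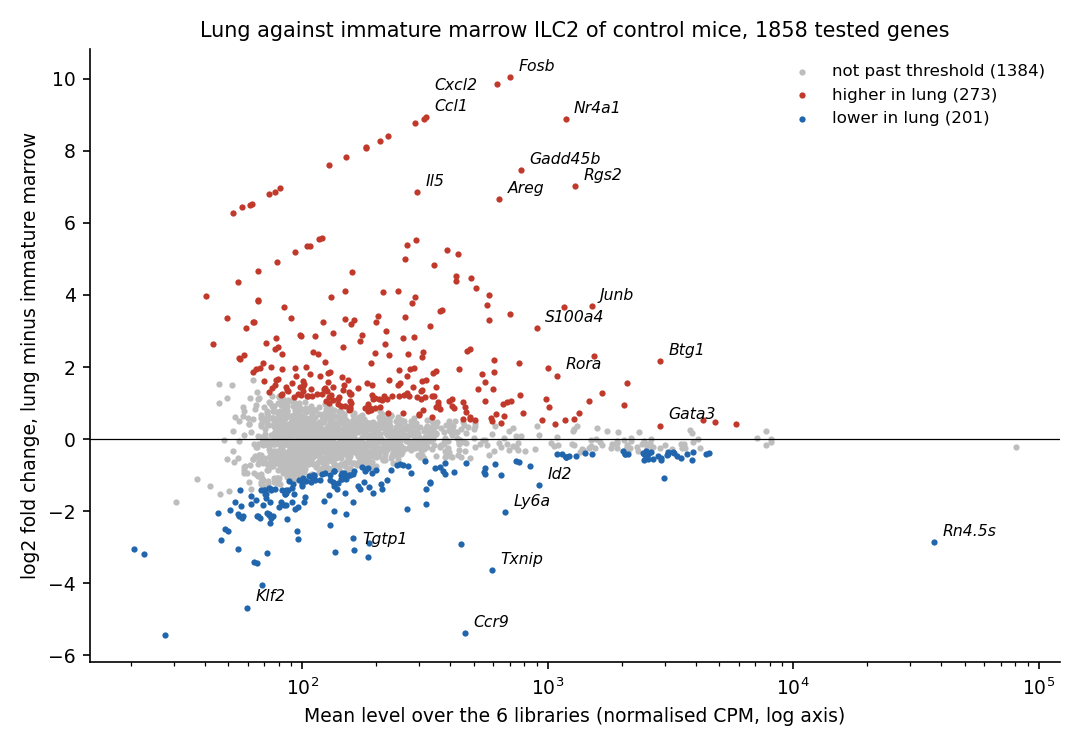
Each point is 1 of the 1858 tested genes, with its mean level over the 6 control libraries on a log axis (CPM) and its log2 fold change, lung minus immature marrow. Red points (273) passed as higher and blue points (201) as lower in lung; genes from Fosb at 10.04 to Ccr9 at -5.39 are named.

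Immediate-early genes, which cells transcribe within minutes of a signal and without new protein synthesis, were among the genes with the greatest changes, beside the chemokine genes Cxcl2 and Ccl1 described further on. Fosb, a subunit of the AP-1 transcription factor, was at 0, 0 and 0 CPM in the immature libraries and at 1587, 1187 and 1433 CPM in the lung libraries. No count of it was seen in immature marrow, so it was at least 126-fold higher in lung (adjusted p = 6.17e-31). Fos was likewise without counts in immature marrow and at 551, 546 and 774 CPM in lung, at least 56.9-fold higher. Nr4a1, an orphan nuclear receptor gene that antigen receptor signals induce in lymphocytes, was at 0, 10.3 and 0 CPM in immature and at 2678, 1872 and 2524 CPM in lung libraries (log2 change 8.87 ± 0.37, adjusted p = 2.82e-36). Its immature libraries held 1 count in all, and the ratio with its 95% counting interval was 637 (114 to 25187). Its relatives Nr4a3 and Nr4a2 had no counts in immature marrow and were at 578 ± 84.7 and 363 ± 67.9 CPM in lung (SD, n = 3). In each of these genes every lung library lay far above every immature library.

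Of 8 tested AP-1 factors and partners, 7 were higher and 0 lower in lung, beside 14.7% and 10.8% of all tested genes. Their median log2 change was 5.97, or 3.76 with the genes without immature counts set at their lower bound. Junb was already transcribed in marrow, at 144, 279 and 219.7 CPM, and was at 2943, 2802 and 2664 CPM in lung, 12.9-fold higher (3.69 ± 0.18, adjusted p = 4.12e-32). Jund, the subunit that changed least among those that passed, rose by 1.58 ± 0.19. Jdp2 did not pass, at 1.51, though it did without immature replicate 3 or lung replicate 2. Jun had 0 counts in immature and 5, 9 and 8 counts in lung libraries, too few to be tested. Of 14 tested EGR, NR4A, KLF and other early response genes 11 were higher and 1 lower, beside the same shares of all tested genes. Their median was 3.94. The higher ones included the zinc-finger gene Egr1 (4.67 ± 0.81), Klf4 (3.94 ± 0.35), the Notch target Hes1 (5.53 ± 0.47) and the cAMP-responsive gene Crem (3.93 ± 0.50). Klf2 was the lower one and is described below with the exit genes.

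**Figure D2:**
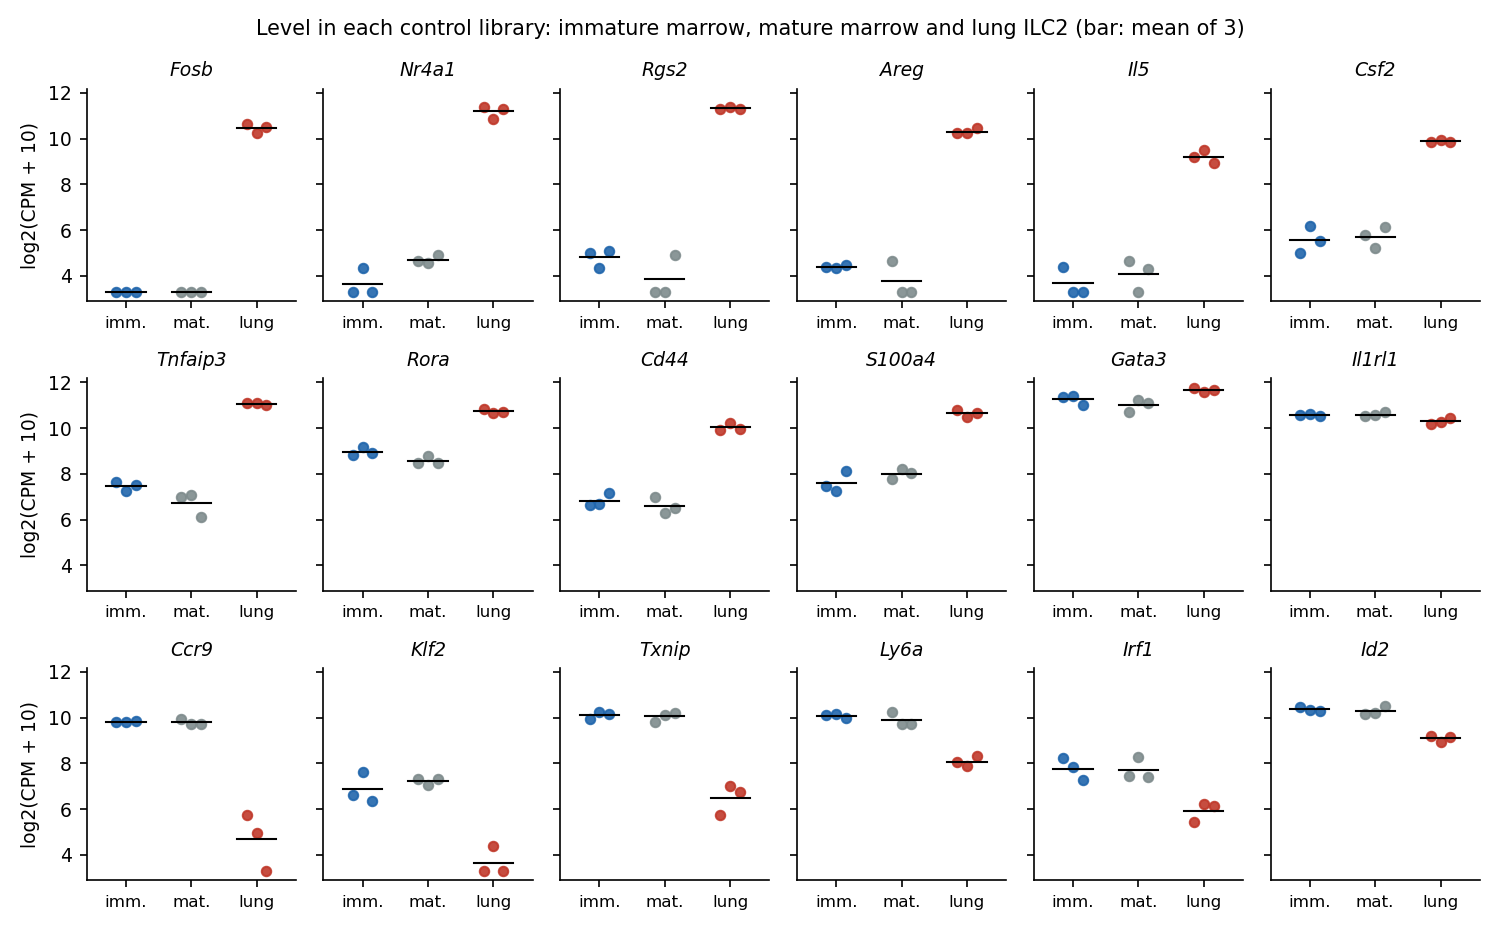
Each point is the level of a gene in 1 control library as log2(CPM + 10), for immature marrow (imm., blue), mature marrow (mat., grey) and lung ILC2 (red), and bars are means of 3. The first 10 genes lie higher and the last 6 lower in lung, with both marrow populations close together, while Gata3 and Il1rl1 change little.

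Feedback inhibitors of signalling were higher too, beside a receptor partner, a stress-induced gene and a cell cycle inhibitor. Dusp1, a phosphatase that inactivates MAP kinases, was at 33.2, 10.3 and 12.2 CPM in immature and 783, 717 and 774 CPM in lung libraries (5.25 ± 0.35, adjusted p = 3.43e-23). With Dusp10, Spry1, Spry2 and Ppp1r15a it made 5 higher and 0 lower among 6 tested genes listed for MAPK feedback, with a median of 3.97. Of all tested genes 14.7% were higher and 10.8% lower. Ppp1r15a is on that list although its product is neither a MAP kinase phosphatase nor a Sprouty protein. In a fit of only these 6 libraries 3 of the 4 members tested were higher. Rgs2, which limits signals from G protein-coupled receptors, rose from 22.1, 10.3 and 24.4 CPM to 2513, 2663 and 2515 CPM (7.01 ± 0.29, adjusted p = 2.82e-36), and its 3 lung values lay within a narrow range. Its relative Rgs1 rose by 4.83 ± 0.39. Ramp3, a partner of the calcitonin receptor family, had no immature counts and 365 ± 68.00 CPM in lung, at least 32.5-fold higher. Gadd45b, a stress-induced gene, had 2 counts over the immature libraries and 1587, 1572 and 1495 CPM in lung, a ratio of 208 (57.3 to 1724). The cell cycle inhibitor gene Cdkn1a was without immature counts and at 413 ± 49.6 CPM in lung, at least 37.03-fold higher.

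The promoters of Areg and Dusp1 are shown because both hold the cAMP response element TGACGTCA, which CREB and ATF factors bind. Each line gives the 150 bases before the start site, 5′ to 3′ on the gene's own strand, from RefSeq on GRCm38.p6, and capitals mark the element and, for Areg, the TATA box TATAAA.
Areg promoter, chr5:91139449-91139598, plus strand: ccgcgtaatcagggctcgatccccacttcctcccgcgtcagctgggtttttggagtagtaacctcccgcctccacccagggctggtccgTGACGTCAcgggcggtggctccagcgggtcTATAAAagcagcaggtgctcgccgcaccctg
Dusp1 promoter, chr17:26508473-26508622, minus strand: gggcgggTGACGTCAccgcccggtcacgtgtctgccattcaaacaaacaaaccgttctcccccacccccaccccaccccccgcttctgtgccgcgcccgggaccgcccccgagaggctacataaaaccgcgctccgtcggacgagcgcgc
The element was found in 6.60% of 212 promoters of higher genes, 3.90% of 154 promoters of lower genes, 3.56% of 1434 promoters of tested genes and 1.91% of all 25748 promoters, searching 250 bases before to 50 after the start site on both strands. TATAAA was in 17.0% of higher, 6.49% of lower and 8.79% of tested genes, but in 14.2% of all promoters. The AP-1 site TGANTCA, which differs from the cAMP response element in its spacing, was in 7.08% of higher, 5.84% of lower and 5.30% of tested genes and in 7.93% of all promoters. These shares describe letters in a window and are not binding sites.

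Genes for secreted effectors were the next large group. Of 14 tested members 9 were higher and 1 lower in lung, beside 14.7% and 10.8% of all tested genes. Their median log2 change was 2.79. Areg, encoding amphiregulin, was at 11.1, 10.3 and 12.2 CPM in the immature libraries, which is 1 count in each, and at 1190.4, 1187 and 1398 CPM in the lung libraries (6.66 ± 0.37, adjusted p = 1.83e-28). Its ratio with the counting interval was 114 (38.6 to 554). Il5, the eosinophil growth factor gene, had 1 count over the immature libraries and 573, 706 and 475 CPM in lung (6.85 ± 0.53, adjusted p = 1.22e-19), a ratio of 155 (27.5 to 6172). Il13, the type 2 cytokine that drives mucus production, was at 0, 0 and 12.2 CPM in immature and 88.2, 193 and 35.2 CPM in lung libraries (4.35 ± 0.90, adjusted p = 7.35e-05). Its lung values spread widely, and the lowest of them still lay above the highest immature value. Il4 was not tested: it had 4, 1 and 5 counts in immature and 0 in each lung library.

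Csf2, which encodes the growth factor GM-CSF, was at 22.1, 62.03 and 36.6 CPM in immature and 915, 973 and 906 CPM in lung libraries (4.47 ± 0.28, adjusted p = 8.85e-25). Lif, a cytokine of the interleukin-6 family, had no immature counts and was at 445 ± 72.2 CPM in lung, at least 40.3-fold higher. Il2, a T cell growth factor gene, rose by 5.36 ± 0.73 with 1 immature count, and Calca, which encodes the neuropeptide CGRP, by 5.39 ± 0.46 with 3 immature counts. Arg1, whose enzyme degrades arginine and which is a known ILC2 gene, was well transcribed in marrow at 210.1, 279 and 403 CPM and was at 584, 642 and 580.3 CPM in lung, 2.04-fold higher (1.03 ± 0.20). Ltb, which encodes lymphotoxin beta, was the member that fell, by -1.22 ± 0.24 from 464 ± 67.6 to 196 ± 68.4 CPM. Among chemokine genes, Ccl1 and Cxcl2 had no immature counts and were at 640.5 ± 86.9 and 1242 ± 226 CPM in lung, at least 58.1-fold and 111-fold higher. Cxcl1, next to Cxcl2 on chromosome 5, was at 132, 182 and 61.6 CPM in lung and at 0 in immature marrow, and Ccl5 was lower in lung at 0, 10.7 and 61.6 against 188, 124 and 61.02 CPM (-2.18 ± 0.55), with the 2 groups overlapping.

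Many cytokine transcripts carry AU-rich elements, repeats of ATTTA in the 3′ untranslated region that mark them for rapid decay. The 30 bases richest in this pentamer are shown for 4 of the higher genes, from the GENCODE M21 transcripts on mm10, with ATTTA in capitals.
Csf2 3′ UTR window: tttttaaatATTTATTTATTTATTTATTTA
Il2 3′ UTR window: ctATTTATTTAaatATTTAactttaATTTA
Areg 3′ UTR window: ataATTTATTTAatATTTAagtgttATTTA
Cxcl2 3′ UTR window: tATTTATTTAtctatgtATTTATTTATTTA
The longer form TTATTTATT was in the 3′ untranslated region of 13.8% of 269 higher genes, 8.56% of 187 lower genes and 7.80% of 1782 tested genes, and the median length of the region was 1318, 1059 and 1234 bases in the same order. Genes for mRNA decay and growth arrest factors were mostly higher in lung. Of 12 tested, 8 were higher and 2 lower, beside 14.7% and 10.8% of all tested genes. Their changes ran from -1.81 to 3.43, with a median of 1.24, and the members named here are all higher ones. Action of these factors on AU-rich RNAs was not tested. Zfp36, whose protein binds AU-rich elements, rose from 44.2, 41.4 and 12.2 to 375, 385 and 361 CPM (3.43 ± 0.39, adjusted p = 3.87e-12). Its relative Zfp36l1 rose from 1058 ± 185 to 3133 ± 332 CPM (1.56 ± 0.14). Btg1, an antiproliferative factor that recruits deadenylases and one of the most abundant of these transcripts, went from 962, 1085 and 1098 to 4927, 4311 and 4845 CPM, 4.48-fold higher (2.16 ± 0.14, adjusted p = 9.11e-25). Tob2 and Btg2 rose by 3.13 ± 0.29 and 2.28 ± 0.27.

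NF-kB signalling is switched off by inhibitors that it induces, and several of these inhibitors were higher in lung. Nfkbia, which encodes IκBα, was at 498, 609.9 and 439 CPM in immature and 2601, 2492 and 2647 CPM in lung libraries, 4.96-fold higher (2.31 ± 0.16, adjusted p = 8.47e-23). Tnfaip3, encoding the ubiquitin-editing enzyme A20, was at 188, 145 and 171 and 2193, 2182 and 2075 CPM, 12.7-fold higher (3.67 ± 0.19, adjusted p = 2.8e-30). With Nfkbid, Nfkbiz, Zc3h12a and Tnfaip8 they made 6 higher and 0 lower among 13 tested NF-kB subunits, feedback inhibitors and targets (median 0.88). Of all tested genes 14.7% were higher and 10.8% lower. The call for Tnfaip8 was lost without immature replicate 2 (adjusted p = 0.093) and with the Wald test of DESeq2. The subunit gene Nfkb1 did not pass, at 0.29 ± 0.19. Tnf had 0 counts in immature and 5, 7 and 7 counts in lung libraries and was not tested. The promoters of Cxcl2 and Nfkbia each hold a match to the kappaB motif, in capitals in the 150 bases before the start site.
Cxcl2 promoter, chr5:90903749-90903898, plus strand: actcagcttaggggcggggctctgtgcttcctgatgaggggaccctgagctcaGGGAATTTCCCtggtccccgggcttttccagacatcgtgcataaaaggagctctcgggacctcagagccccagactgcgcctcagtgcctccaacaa
Nfkbia promoter, chr12:55492648-55492797, minus strand: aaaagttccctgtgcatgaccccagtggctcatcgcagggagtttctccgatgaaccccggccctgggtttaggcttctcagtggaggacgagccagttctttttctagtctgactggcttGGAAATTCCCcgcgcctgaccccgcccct
The motif was in 15.1% of higher, 10.4% of lower and 11.9% of tested genes, and in 8.32% of all promoters. In Cxcl2 it matched on both strands, 1 base apart.

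Vimentin, S100, annexin and galectin genes, cytoskeletal and calcium-binding proteins that mark effector and memory lymphocytes, were higher in lung with 11 of 14 tested members, 0 lower and a median of 2.32. S100a4 was at 166, 145 and 268 CPM in immature and 1786, 1444 and 1609 CPM in lung libraries, 8.44-fold higher (3.08 ± 0.19, adjusted p = 4.76e-25). Its neighbour on chromosome 3, S100a6, rose by 2.82 ± 0.31. Ahnak, a large scaffold protein gene, went from 44.2, 103 and 48.8 to 1146, 1155 and 967 CPM, 15.9-fold higher (3.99 ± 0.27), and Lgals1, which encodes galectin-1, rose by 3.38 ± 0.33. Vim was at 133, 134 and 159 and 969.9, 919.9 and 580.3 CPM (2.51 ± 0.23), with lung replicate 3 below the other two. Of 33 tested actin cytoskeleton genes 7 were higher and 1 lower, beside 14.7% and 10.8% of all tested genes, with a median of 0.22. Actg1 rose by 1.05 ± 0.15. With upper-quartile scaling the median of the actin genes was 0.07 and 5 of them were higher.

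Adhesion and homing genes went both ways. The hyaluronan receptor gene Cd44 was at 88.4, 93.04 and 134 CPM in immature and 959, 1198 and 976 CPM in lung libraries, 9.90-fold higher (3.31 ± 0.23, adjusted p = 5.43e-22). Cd69, whose protein holds lymphocytes in tissue by removing the egress receptor S1P1 from the surface, was at 0, 62.03 and 24.4 and 265, 203 and 422 CPM (3.30 ± 0.43, adjusted p = 6.42e-10). S1pr1, which encodes that receptor, had 0 counts in all 6 libraries. Klf2, the factor that drives S1pr1 transcription in lymphocytes, was at 88.4, 186 and 73.2 CPM in immature marrow, while lung held 1 count in all, at 0, 10.7 and 0 CPM (-4.67 ± 0.80, adjusted p = 1.41e-06), a ratio of immature to lung of 35.4 (5.92 to 1442). The integrin gene Itga4, which pairs with beta chains to bind vascular and gut addressins, fell from 564, 455 and 476 to 121, 149.7 and 149 CPM (-1.81 ± 0.25).

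Ccr9, the receptor for the gut chemokine CCL25, was at 884, 889 and 928 CPM in the immature libraries and at 44.1, 21.4 and 0 CPM in the lung libraries, 41.9-fold lower (-5.39 ± 0.38, adjusted p = 3.55e-22). It was the gene with the greatest fall among those the naming rule takes in. Lztfl1, on the opposite strand and within the annotated span of Ccr9 on chromosome 9, fell by -2.90 ± 0.25, and counts of overlapping genes are uncertain here. Other receptors for attractants were higher: Ccr2, which follows monocyte chemoattractants, went from 354, 403 and 464 to 1609, 1455 and 1715 CPM (1.97 ± 0.18, adjusted p = 8.97e-16), Cxcr6 rose by 0.99 ± 0.19 and Cxcr4 by 1.39 ± 0.38. In all, 6 of 11 tested chemoattractant receptor genes were higher and 1, Ccr9, was lower, beside 14.7% and 10.8% of all tested genes.

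Of 18 tested transcription factors listed for ILC2 identity and development 5 were higher and 2 lower. The shares of all tested genes were 14.7% and 10.8%, and the median of the list was 0.37. The higher count was 3 with upper-quartile scaling, with the Wald test of DESeq2 or without lung replicate 1. Rora, which ILC2 need for their development, was at 442, 569 and 476 CPM in immature and 1841, 1604 and 1635 CPM in lung libraries, 3.39-fold higher (1.76 ± 0.17, adjusted p = 1.43e-14). Gata3 rose by 0.38 ± 0.13 (adjusted p = 0.0237). That call was lost without immature replicate 3 or lung replicate 1 (highest adjusted p = 0.201), with upper-quartile scaling and with the Wald test. Id2, the factor shared by all innate lymphoid cells, was lower, at 1393, 1282 and 1257 against 573, 481 and 563 CPM (-1.28 ± 0.16, adjusted p = 1.02e-10). Satb1, a chromatin organiser of immature lymphocytes, fell from 299, 227 and 219.7 to 66.1, 85.6 and 70.3 CPM (-1.73 ± 0.33, adjusted p = 1.7e-05). Bhlhe40 and Cebpb, factors induced by cytokine signals, rose by 4.40 ± 0.30 and 5.54 ± 0.71. The rise of Cebpb was the largest on that list, so its higher members are not identity factors alone. Bcl11b was at 356 ± 95.03 and 469 ± 71.7 CPM and did not pass (adjusted p = 0.201), and Tcf7 had 14 counts over the immature and 10 over the lung libraries, too few to be tested.

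Surface proteins by which ILC2 stages are told apart were higher at 7 and lower at 3 of 14 tested genes, beside 14.7% and 10.8% of all tested genes. Ly6a, encoding Sca-1, was at 1095, 1116 and 1013 CPM in immature and 254, 225 and 308 CPM in lung libraries, 4.05-fold lower (-2.02 ± 0.19, adjusted p = 1.53e-15). Klrg1, a marker of mature ILC2, was at 0, 31.01 and 24.4 CPM in immature and 132, 107 and 132 CPM in lung libraries (2.66 ± 0.59, adjusted p = 0.000203), and the mature marrow libraries were at 134, 305 and 251 CPM, each above the 3 lung values. Kit, the stem cell factor receptor gene, rose from 122, 114 and 73.2 to 342, 417 and 422 CPM (1.91 ± 0.28), and the costimulatory receptor gene Icos from 387, 248 and 354 to 859.7, 781 and 949.6 CPM (1.40 ± 0.19). Pdcd1, which encodes the inhibitory receptor PD-1, had no immature counts and 298, 203 and 273 CPM in lung, at least 23.2-fold higher. The alarmin receptor gene Il1rl1 did not pass (-0.26 ± 0.15, adjusted p = 0.201, though 0.0276 with upper-quartile scaling), nor did Il2ra (-0.16 ± 0.18) or Thy1 (0.51 ± 0.22), though Thy1 did in a fit of only these 6 libraries and without lung replicate 1. Il17rb, the receptor gene for the alarmin IL-25, fell from 219.8 ± 98.7 to 78.2 ± 25.00 CPM (-1.49 ± 0.37), a call lost without immature replicate 1 (adjusted p = 0.0659).

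Among cytokine and alarmin receptor genes 6 of 12 tested members were higher and 1, Il17rb, was lower. Of all tested genes 14.7% were higher and 10.8% lower. Il10ra and Il4ra, receptor chains for IL-10 and for IL-4 and IL-13, rose by 3.24 ± 0.46 and 2.56 ± 0.53. The interferon gamma receptor gene Ifngr1 went from 122, 93.04 and 171 to 364, 353 and 404 CPM (1.56 ± 0.32), a call lost with the Wald test of DESeq2 (adjusted p = 0.0519). Il7r rose from 774 ± 244 to 1118 ± 206 CPM (0.52 ± 0.17, adjusted p = 0.0142) and Ptprc, which encodes CD45, from 389 ± 65.8 to 579 ± 43.7 CPM (0.57 ± 0.22, adjusted p = 0.0441). Both calls were lost with single libraries left out, with a highest adjusted p of 0.152 for Il7r and 0.146 for Ptprc, and both were lost with upper-quartile scaling (adjusted p = 0.0903 and 0.153) and with the Wald test (adjusted p = 0.0869 and 0.209). The call for Ptprc was also lost with a replicate block (adjusted p = 0.051).

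**Figure D3:**
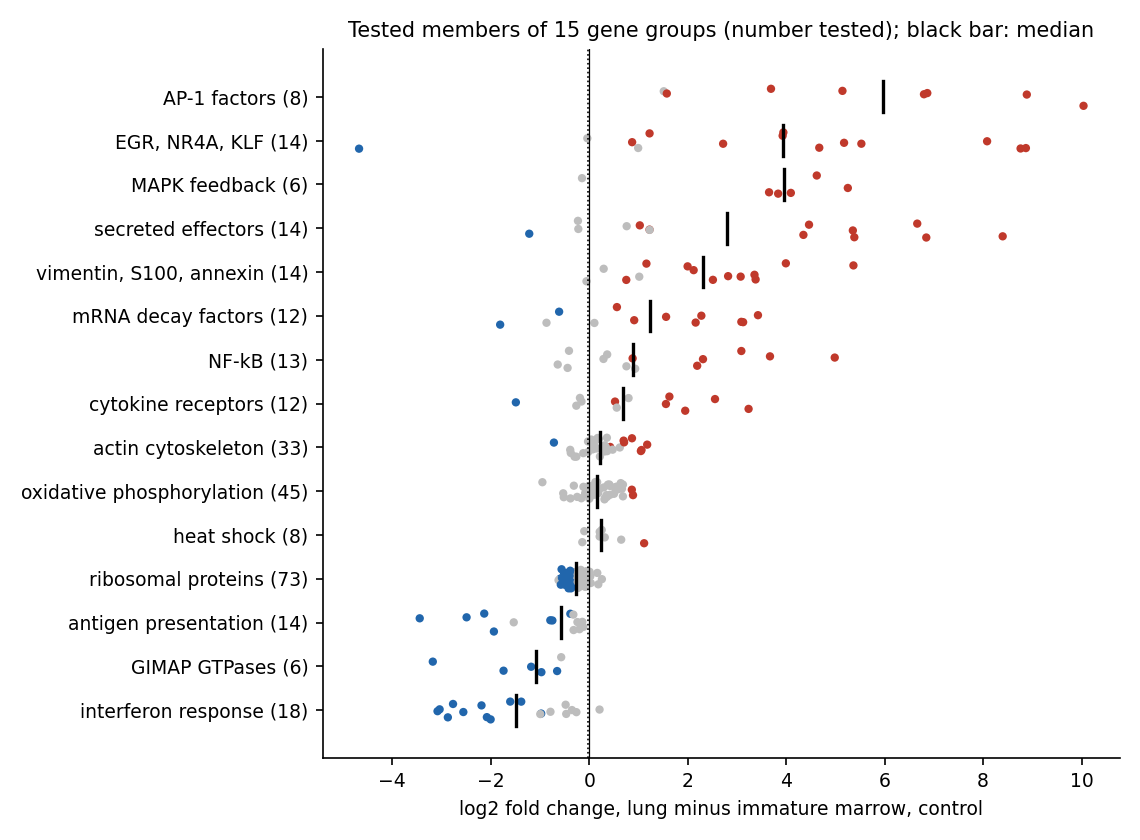
Each point is a tested gene of 1 of 15 gene groups, placed by its log2 fold change, lung minus immature marrow, in control mice; red passed as higher, blue as lower, grey did not pass, and black bars are group medians. The medians run from 5.97 for AP-1 factors to -1.49 for interferon response genes, with the median of all genes (dotted) at -0.02.

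Interferon response genes were lower in lung. Of 18 tested members 0 were higher and 11 lower, beside 14.7% and 10.8% of all tested genes. In a fit of only these 6 libraries 7 of the 10 members tested were lower. The median of the 18 members was -1.49 against -0.02 for all genes. Irf1, a transcription factor that interferon gamma induces, was at 287, 217 and 146 CPM in immature and 33.1, 64.2 and 61.6 CPM in lung libraries (-2.002 ± 0.38, adjusted p = 1.41e-05). Of the members that fell 6 encode immunity-related GTPases, which attack vacuoles of intracellular parasites: Tgtp1, Tgtp2, Iigp1, Ifi47, Igtp and Irgm1. The call for Iigp1 was lost with any of 4 libraries left out (highest adjusted p = 0.214), without a filter on low counts and with the Wald test. Tgtp1 was at 332, 279 and 268 and 11.02, 32.1 and 52.8 CPM (-3.08 ± 0.40) and Tgtp2 at 354, 248 and 391 and 33.1, 64.2 and 35.2 CPM (-2.87 ± 0.36), and the 2 genes are near-identical copies whose reads cannot be assigned with certainty. Ifi47 fell by -2.77 ± 0.48 and the guanylate-binding protein gene Gbp7 by -1.38 ± 0.29. Samhd1, a nucleotide hydrolase gene, fell from 738 ± 70.7 to 373 ± 55.4 CPM (-0.98 ± 0.19). Socs1, the feedback inhibitor of interferon signalling, fell from 254, 248 and 342 to 44.1, 21.4 and 52.8 CPM (-2.75 ± 0.37, adjusted p = 2.03e-09).

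Antigen presentation genes were lower at 7 and higher at 0 of 14 tested members, beside 10.8% and 14.7% of all tested genes. Their median was -0.57. The lower count was 4 without a filter on low counts and 3 of the 8 tested in a fit of only these 6 libraries. The peptide transporter gene Tap1 fell from 133, 103 and 207 to 55.1, 42.8 and 17.6 CPM (-1.94 ± 0.45), and Psmb9, an immunoproteasome subunit gene that overlaps it on chromosome 17, by -2.49 ± 0.68. Cd74, the invariant chain gene of MHC class II, was at 133, 134 and 97.6 CPM in immature and 0, 10.7 and 17.6 CPM in lung libraries (-3.44 ± 0.70), and beside it the macrophage and dendritic cell markers, of which Cd74 is the most abundant, summed to 16 to 29 counts in the immature libraries and to 0 to 2 in the lung libraries. Of those 18 markers 11 were at 0 in all 6 libraries, among them Csf1r, Adgre1, Itgax and Flt3, and the part of such cells in the Cd74 result was not tested. All 6 tested GIMAP genes, GTPases of lymphocyte survival in 1 cluster on chromosome 6, had negative changes. Their median was -1.07, and 5 passed, beside 10.8% of all tested genes that passed as lower. The count was 2 without a filter on low counts, 3 with the Wald test or without immature replicate 2 or 3 or lung replicate 1 or 2, and 3 of the 4 tested in a fit of only these 6 libraries. Gimap6 fell from 254, 227 and 256 to 88.2, 171 and 70.3 CPM (-1.18 ± 0.30) and Gimap5 by -1.74 ± 0.46. The calls of the other 3, Gimap1, Gimap3 and Gimap4, were each lost with at least 1 library left out (highest adjusted p = 0.1, 0.204 and 0.147).

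Txnip and Ddit4, genes that respond to nutrient and energy state and restrain glucose uptake and mTORC1, fell together. Txnip was at 962, 1219.8 and 1123 CPM in immature and 44.1, 118 and 96.7 CPM in lung libraries, 12.5-fold lower (-3.64 ± 0.24, adjusted p = 3.43e-23). Ddit4 was at 287, 217 and 232 and 0, 42.8 and 35.2 CPM (-3.13 ± 0.42, adjusted p = 1.29e-09). Of 11 tested glucocorticoid-induced genes 5 were higher and 3 lower, beside 14.7% and 10.8% of all tested genes. Dusp1 and Per1 (1.64 ± 0.35) were among the higher ones. Scd2, a fatty acid desaturase gene, fell from 144, 114 and 134 to 11.02, 0 and 8.79 CPM (-4.03 ± 0.70). Alox5, the first enzyme of leukotriene synthesis, fell by -1.31 ± 0.34, whereas Ptgs2, the inducible prostaglandin synthase, had no immature counts and was at 132, 193 and 43.96 CPM in lung. Odc1, the rate-limiting enzyme of polyamine synthesis, rose from 55.3, 41.4 and 73.2 to 749, 578 and 686 CPM (3.56 ± 0.30).

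Of 73 tested ribosomal protein genes 0 were higher and 31 lower, beside 10.8% of all tested genes that were lower, with a median of -0.26 and a lowest value of -0.62. Rpl17 fell from 4641 ± 559 to 3087 ± 90.4 CPM (-0.59 ± 0.12). The count of lower ribosomal genes was 48 with upper-quartile scaling, 2 without a filter on low counts, and 13, 18 and 17 without immature replicate 3, lung replicate 1 and lung replicate 3. Of 45 oxidative phosphorylation genes 2 were higher and 0 lower, and of 8 cytosolic heat shock genes 1, Dnaja1, was higher (1.12 ± 0.22) and 0 lower. Of 19 proteasome genes 2 were higher and 4 lower, down to -2.49 for Psmb9, the immunoproteasome gene given above with antigen presentation. Of 16 endoplasmic reticulum chaperone genes 3 were higher and 1 lower, with changes from -2.09 to 1.34. Among 9 proliferation genes 0 were higher and 1 lower. The shares to set beside these groups are 14.7% higher and 10.8% lower among all tested genes. Rn4.5s, a short noncoding RNA that made up 6.36% to 7.10% of counts in the immature libraries, made up 0.867% to 1.04% in the lung libraries (-2.85 ± 0.16, adjusted p = 6.82e-28). The nuclear long noncoding RNA Malat1 was at 4531 ± 114 and 3843 ± 372 CPM and did not pass (adjusted p = 0.243), though it was lower with upper-quartile scaling (adjusted p = 0.0381).

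A comparison of lung with mature marrow ILC2 would share the lung libraries, so the levels in mature controls are given side by side without a test. For the following genes higher in lung, mature marrow was as low as immature marrow: Fosb and Cxcl2 had 0 counts in all 3 mature libraries, Areg was at 14.9, 0 and 0 CPM, Il5 at 14.9, 0 and 10.03 CPM and Junb at 149, 167 and 271 CPM. For the following genes that fell, mature marrow was about as high: Ccr9 was at 969, 833 and 842 CPM, Txnip at 894, 1110.4 and 1173 CPM and Ly6a at 1192, 833 and 832 CPM. Each of these mature ranges lay apart from the lung range. Klrg1 was the exception among the genes whose mature levels are printed, as given above. For the other genes described the text makes no such comparison.

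The same tissues were compared in CD45 KO mice, with which this comparison shares no library. There 474 of the 1858 genes passed (25.5%), 296 higher and 178 lower. Of the 273 genes higher in controls 223 (81.7%) also passed as higher in CD45 KO mice, which was 75.3% of the higher genes there. Of the 201 lower genes 84 (41.8%) also passed as lower, 47.2% of the lower genes there. No gene passed in opposite directions, and 438 of the 474 genes that passed in controls had the same sign. Across the 1858 genes, which are not independent replicates, Pearson's r of the 2 sets of log2 changes was 0.88 and Spearman's rho 0.69. The largest changes were shared: Fosb changed by 10.04 in controls and had no immature counts in CD45 KO mice either, with 2044, 2392 and 2537 CPM in the lung libraries, and Ccr9 fell by -5.39 ± 0.38 and -3.43 ± 0.31. Of the 18 interferon response genes 11 passed as lower in controls and 14 in CD45 KO mice, 10 of them in both, with Tgtp2 at -2.87 ± 0.36 and -4.63 ± 0.34. Of the 14 vimentin, S100 and annexin genes 11 passed as higher in controls and 11 in CD45 KO mice, the same 11 genes, with medians of 2.32 and 1.25. Ribosomal protein genes did not: 1 was higher and 0 lower in CD45 KO mice, with a median of 0.01, and this difference between genotypes was not tested for the group.

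**Figure D4:**
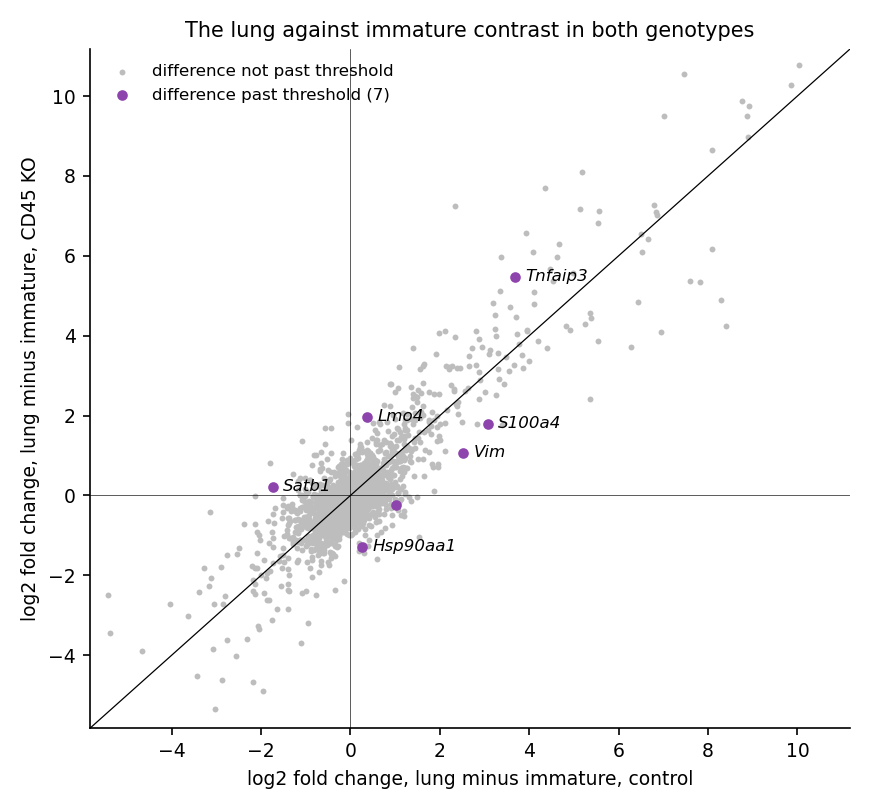
Each point is 1 of the 1858 tested genes, with its log2 fold change, lung minus immature marrow, in control mice on the x axis and in CD45 KO mice on the y axis, and the diagonal marks equal change. Most genes lie near the diagonal (Pearson's r 0.88), and the 7 purple genes, 6 of them named, are those whose tissue contrast differed between the genotypes.

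The difference of the tissue contrast between the genotypes, tested in the same fit, passed for 7 of 1858 genes (0.377%), and 230 were at an unadjusted p under 0.05. Of the 7 genes 6 are described. Lmo4, a LIM-domain cofactor gene, was at 1327, 1137 and 964 CPM in immature and 1532, 1155 and 1741 CPM in lung controls and did not pass there (0.37 ± 0.15), though it did without Rn45s and Rn4.5s, without a filter on low counts, in a fit of only these 6 libraries, and without immature replicate 1 or lung replicate 2. In CD45 KO mice it was at 729, 658 and 641 and 2531, 2792 and 2618 CPM (1.97 ± 0.16), so the contrast was larger by 1.598 ± 0.22 (adjusted p = 3.87e-07). Tnfaip3 rose in both, and more in CD45 KO mice (5.47 ± 0.22, difference 1.80 ± 0.39, adjusted p = 0.00646), where immature levels were 49.3, 51.9 and 73.5 CPM. S100a4 and Vim rose in both, and less in CD45 KO mice (differences -1.29 ± 0.28 and -1.45 ± 0.32, adjusted p = 0.00646 and adjusted p = 0.00865), with immature levels of 434, 294 and 389 CPM and 306, 355 and 315 CPM. Satb1 fell in controls and did not pass in CD45 KO mice (0.22 ± 0.34, difference 1.96 ± 0.48, adjusted p = 0.0319). Hsp90aa1, a cytosolic chaperone gene, did not pass in controls (0.25 ± 0.25) and fell in CD45 KO mice (-1.28 ± 0.25, difference -1.54 ± 0.36, adjusted p = 0.0144). The call for Lmo4 held with each of the 12 libraries left out in turn. Those for the other 5 described here did not, with a highest adjusted p of 0.0818 for Tnfaip3, 0.102 for S100a4, 0.0839 for Vim, 0.146 for Satb1 and 0.178 for Hsp90aa1.

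**Figure D5:**
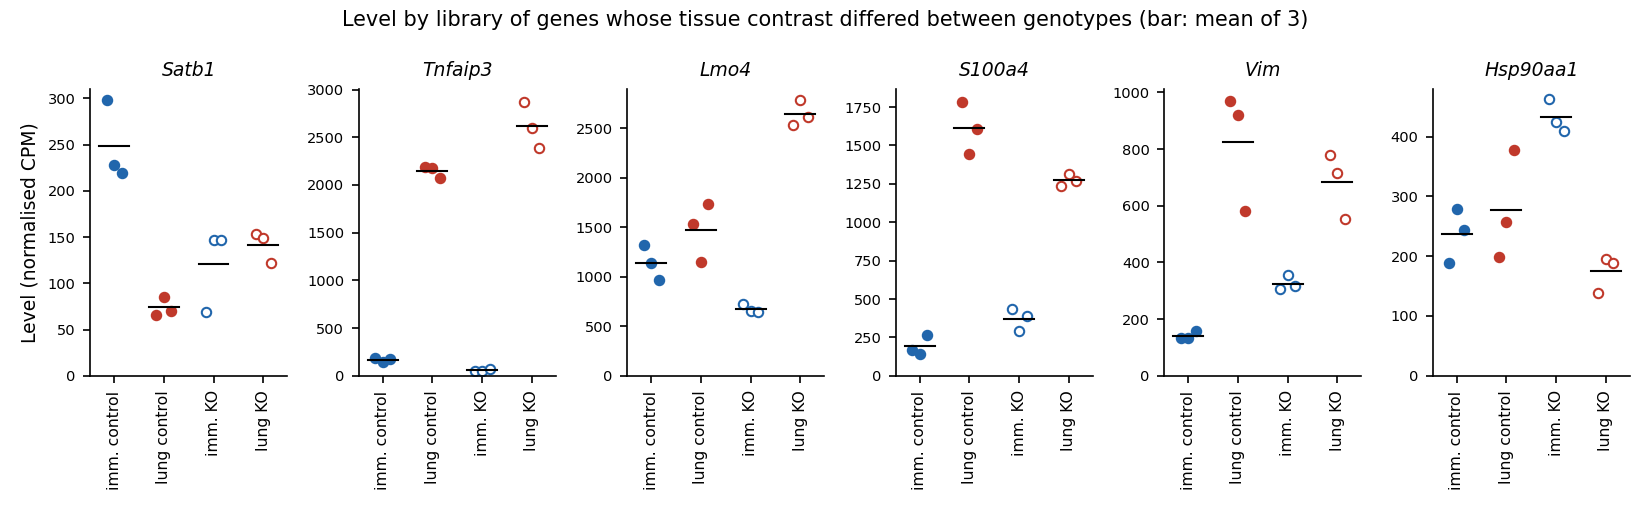
Each point is the level in 1 library (CPM) of a gene whose lung against immature contrast differed between genotypes, in control (filled) and CD45 KO mice (open), immature marrow in blue and lung in red, and bars are means of 3. In Lmo4 the CD45 KO libraries run from 641 to 729 CPM in immature marrow and from 2531 to 2792 CPM in lung, outside the control ranges on both sides.

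Positions of the genes on which the results turn, on the mm10 build from GENCODE M21, were chromosome 7, 19302696 to 19310051 for Fosb, chromosome 15, 101254269 to 101274795 for Nr4a1, chromosome 5, 91139599 to 91148432 for Areg, chromosome 11, 53720794 to 53725106 for Il5, chromosome 10, 19000910 to 19015657 for Tnfaip3, chromosome 9, 68653786 to 69388246 for Rora, chromosome 9, 123678439 to 123784330 for Ccr9 and chromosome 15, 74994877 to 74998031 for Ly6a. Some genes that moved together lie side by side, among them the Gimap genes, S100a4 with S100a6, Cxcl1 with Cxcl2, Psmb9 with Tap1, and Tgtp2 with Ifi47. Il5 and Irf1 lie within 60 kb of each other on chromosome 11 and moved in opposite directions.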

How the data were processed

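The deposited table has a row for each gene symbol and 18 library columns of unnormalized whole-number counts. STAR and mm10 are named, unversioned, in the submitters' processing notes. How reads were counted, against which annotation, with or without strand, and whether molecular barcodes were collapsed were points not given in the sources used here. Labels speak of 200 sorted cells per sample and of 100 cells per tube. Per the labels' protocols, oligo-dT primers, template switching and PCR were used, with ERCC spike-in RNA, of which the table has 0 entries. It also has 0 mitochondrially encoded entries and 26 date-like ones, left as they are. The 95 entries that neither GENCODE M21 nor RefSeq names placed on a chromosome were kept among those not on X or Y.

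Samples were grouped by label, 3 per group. Counts were filtered with filterByExpr (minimum 10), scaled with TMM, and fitted as 6 group means over all 18 libraries by the quasi-likelihood test of edgeR 4.0.16 in R 4.3.3, and p-values were adjusted by Benjamini-Hochberg across all 1916 tested genes (threshold 0.05). The 58 tested genes on X and Y stayed in the fit and were left out of counts and naming. SE is the absolute log2 change over the square root of F. Ratios with 1 to 3 counts in a group have exact binomial 95% intervals, for counting error only, and a group with 0 counts gives a bound against 3 counts over the group. Fitted changes of such genes depend on the prior count. On simulated data with 200 changed genes the steps recovered 52.6% of 2-fold and 91.2% of 4-fold changes in the control contrast (1824 genes tested), and 23.2% and 70.3% for the difference between genotypes. They also called 6 and 7 unchanged genes. The simulation gave all genes a common spread and a mean pooled over the 18 libraries, so it does not cover genes almost absent from a single group.

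The members and gene lists were chosen with earlier results of these data known. Some genes, such as Klf2, Dusp1 and Ccr9, are on several lists, so the lists are not separate observations. Genes named were up to 15 higher and 15 lower by size among passing genes without overlap between the groups' libraries and averaging 10 counts or more, a panel of ILC2 and early response genes, up to 8 passing members of each list by p, and up to 8 genes of the difference between genotypes. Predicted genes were left out, and some items are not reported here. Jdp2, Nfkb1, Tnf, Iigp1 and S1pr1's 0 counts are given beside their lists and were partly chosen after their values were seen. Libraries of a group differed by more than counting noise (chi-square over degrees of freedom from 1.17 to 1.30 in the 6 control libraries), so each was counted as 1 replicate, which does not tell whether they share a pool of cells. Alternatives were DESeq2 1.42.0 (its size factors, and separately its Wald test), upper-quartile factors, no filter, a filter of 10 counts in 3 libraries, a fit of the contrasted libraries alone, a replicate block, fits without Rn45s and Rn4.5s or without X and Y, and each library left out in turn.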

Additional observations from a re-analysis of the deposited data

Results flagged for a closer look

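The lung against immature marrow contrast differed between control and CD45 KO mice by the test of the difference itself for 7 genes, of which 6 are described. The difference of log2 changes, CD45 KO minus control, was 1.598 for Lmo4, 1.80 for Tnfaip3, 1.96 for Satb1, -1.29 for S100a4, -1.45 for Vim and -1.54 for Hsp90aa1. Groups of 3 libraries are too small to judge whether a single library is an outlier. With each library left out in turn, the call for Lmo4 held. Those for Tnfaip3, Satb1, S100a4, Vim and Hsp90aa1 were each lost in at least 1 such fit.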

How the results depend on the processing

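The count of 474 genes that passed between lung and immature controls was 475 with the size factors of DESeq2, 549 with upper-quartile factors, 469 without a filter on low counts, 467 with at least 10 counts in 3 libraries, 462 without Rn45s and Rn4.5s, 474 without genes on X and Y, 387 with only the libraries in the contrast and 337 with the Wald test of DESeq2. The count of lower genes (201) moved to 313 with upper-quartile factors, to 125 without a filter on low counts and to 125 with the Wald test. With 1 library left out in turn, 404 to 434 genes passed in controls, 251 to 261 higher and 149 to 178 lower, and 394 to 447 in CD45 KO mice. The 7 genes of the difference between genotypes became 12 with only the libraries in the contrast and 20 with the Wald test, and 2 to 9 with 1 library left out, the lowest without immature control replicate 1, followed by 3 without immature CD45 KO replicate 1. The cause was not tested. Deviations of same-numbered immature and lung libraries correlated at -0.03 to 0.03 in controls and at -0.02 to 0.08 in CD45 KO mice. With few counts per gene and 3 libraries per group, this check cannot tell whether replicate numbers pair the libraries. With the replicate number as a block 460 genes passed in controls, 462 in CD45 KO mice and 6 in the difference. Hsp90aa1, which did not pass in controls (0.25), was at -0.046 to 0.454 with 1 library left out, the lowest without lung replicate 3. Of 105 named genes past the threshold in controls, 80 were tested under every alternative run and kept their call, and 10 lost it under at least 1, 9 of these with 1 library left out. The other 15 kept it where tested but were not tested under at least 1 alternative, for 14 of them the fit restricted to the 6 control libraries compared. The median tested gene had 12.7 counts per library, which limits the precision of single genes.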
